A study of Bos taurus with 15 samples.

Results

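Bovine (Bos taurus) oocytes vitrified in liquid helium were compared with oocytes vitrified in liquid nitrogen, both with 6.6 M cryoprotective agent, by RNA sequencing. The comparison used the 3 helium 6.6 M and the 3 nitrogen 6.6 M libraries, which are 6 of the 15 libraries of the series, and all genes of the count table. The libraries were chosen by their labelled coolant and concentration and by no measured value. The remaining libraries were 3 each of helium 5.6 M, nitrogen 5.6 M and fresh oocytes, and the fresh ones were not vitrified. All groups, fresh included, shared the same preparation per the labels: oocytes from ovaries were matured in vitro in medium with serum, gonadotropins, cysteine and follicular fluid, and were then freed of cumulus cells with hyaluronidase. The series title calls the oocytes immature, so the stage is not settled by the sources used here. The labels describe RNA from single cells amplified to cDNA, and do not say whether a library held 1 oocyte or several, from which animals the oocytes came, or which cryoprotectants were used. In such libraries fewer cells of a type and less RNA per cell cannot be told apart. A p-value here sets a difference against the variation between libraries of a group. Since the origin of the replicates is not stated, that variation may be technical. In the main test of single genes it was estimated from all 15 libraries.

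Vitrification cools cells in concentrated cryoprotectant so fast that water solidifies as a glass without ice crystals. Liquid helium is much colder than liquid nitrogen, and the series set these coolants against each other to ask how vitrification temperature and cryoprotectant concentration act on the oocyte's mRNA. A fully grown oocyte hardly transcribes. It lives on stored maternal mRNA, whose poly(A) tails are shortened and lengthened during maturation.

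Depth differed between the coolants except in 1 library. Total counts were 6987156, 6906940 and 7330690 in the helium 6.6 M libraries, against 1987931, 2613014 and 7392972 in the nitrogen 6.6 M libraries. Nitrogen library 3 was therefore as deep as the helium libraries, and values are given below also against this library alone and against nitrogen libraries 1 and 2. Pairs of libraries correlated at 0.954 to 0.986 within a coolant and at 0.952 to 0.980 between coolants (Pearson's r of log2 CPM, counts scaled to equal library totals, across genes, which are not independent replicates). Oocyte identity was seen in all 6 libraries. The 8 matched oocyte markers, among them the zona pellucida genes ZP2 and ZP4 and the growth factor genes GDF9 and BMP15, summed to 8731, 8602 and 7205 plain CPM in the helium libraries and to 6989, 6951 and 5627 in the nitrogen libraries.

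No single gene passed the test between helium and nitrogen at 6.6 M. Among the lowest p-values were those of the small nuclear RNA 7SK and the respiratory complex I subunit gene NDUFA1, both lower with helium, and of the urokinase receptor gene PLAUR, which was higher with helium. Of 8441 tested genes, 0 (0%) had a Benjamini-Hochberg adjusted p under 0.05 in the quasi-likelihood test of edgeR, and the smallest adjusted p was 0.0930, for 7SK. At an unadjusted p under 0.05, 678 genes (8.03%) were counted, of which 317 (3.76%) were higher and 361 (4.28%) lower with helium. That number was 416 of 8628 tested genes without nitrogen library 3 and 1120 of 9752 without nitrogen library 1. Without nitrogen library 3, 1 gene passed, and with each of the other libraries left out in turn 0 passed. DESeq2's Wald test called 8 genes, of which PLAUR was higher and 7 were lower with helium, among them 7SK, NDUFA1, RPL37 and YES1. The 3 helium libraries lay all above the 3 nitrogen libraries in 594 genes (7.04%) and all below them in 649 (7.69%), 1243 in all (14.7%). In the rest of the text, "at an unadjusted p" means edgeR's p under 0.05 before adjustment, and none of the genes counted that way passed.

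**Figure D1:**
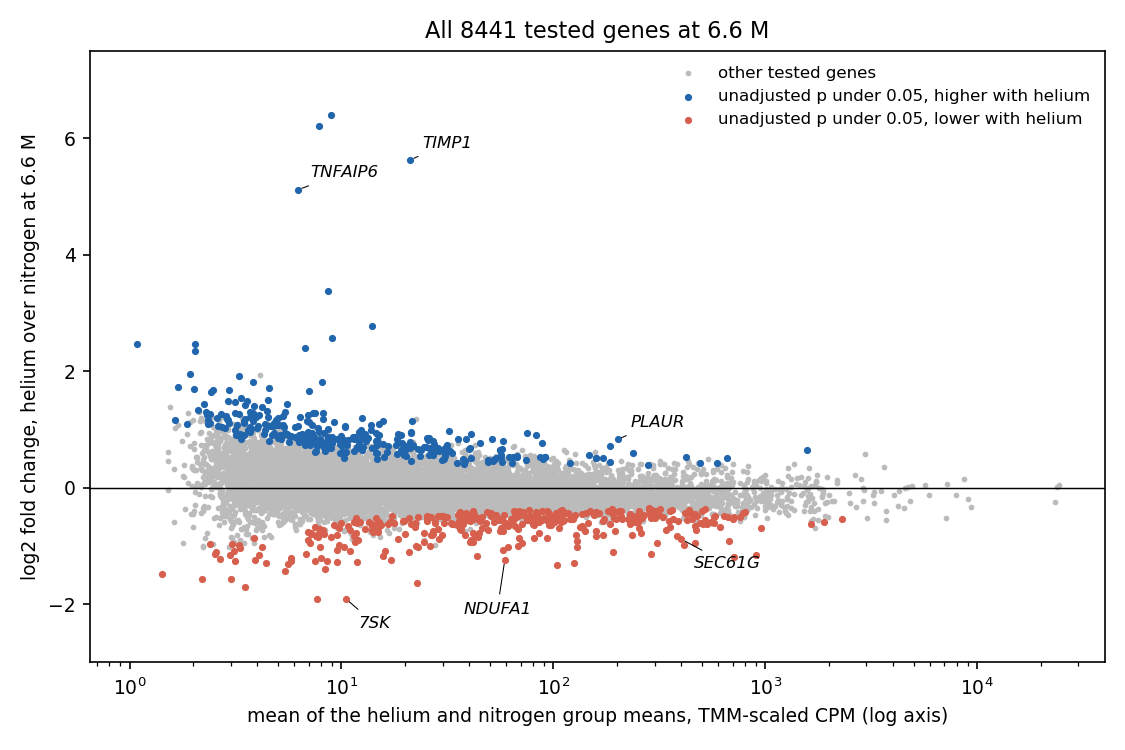
Log2 fold change of helium over nitrogen at 6.6 M (vertical axis) against the mean level in TMM-scaled CPM (horizontal log axis) for the 8441 tested genes. Each point is a gene, and colour marks the 317 genes higher and the 361 genes lower with helium at an unadjusted p under 0.05, none of which passed after adjustment. TIMP1 and TNFAIP6 stand far above zero, with the highest value in helium library 2 and the next in helium library 3. Their values by library are given in the text.

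7SK (ENSBTAG00000043250, chromosome 23, 24977642 to 24977972 of UMD3.1), a non-coding RNA that holds back the transcription elongation factor P-TEFb, stood at 3.14, 4.44 and 5.45 TMM-scaled CPM in the helium libraries, against 21.3, 13.8 and 14.9 in the nitrogen libraries. The groups did not overlap, which the rule for naming genes, given below, required. Nitrogen library 3 lay with the other nitrogen libraries. Its log2 fold change was -1.91 (SE 0.33, edgeR adjusted p = 0.0930). Fresh oocytes held 14.7 ± 5.92 CPM (SD, n = 3), close to the nitrogen level. The table has 117 rows named 7SK, of which this was the only one tested, so reads may be shared among copies and the value is uncertain.

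NDUFA1 (ENSBTAG00000006033, chromosome X, 4068880 to 4072037), an accessory subunit of complex I at the entrance of the respiratory chain, stood at 33.1, 36.0 and 36.0 CPM in the helium libraries, against 75.2, 82.5 and 90.8 in the nitrogen libraries. The gap between the groups was wider than the spread within either. The log2 fold change was -1.24 (SE 0.24, edgeR adjusted p = 0.119), and it was -1.27 (SE 0.24) in the separate libraries at 5.6 M. Fresh oocytes held 49.7 ± 15.5 CPM (SD, n = 3), between the coolants.

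PLAUR (ENSBTAG00000013125, chromosome 18, 52202332 to 52215619), the cell surface receptor of the protease urokinase, led the genes with higher values. It stood at 249, 297 and 225 CPM in the helium libraries, against 163, 139.7 and 132 in the nitrogen libraries. The groups did not overlap, which the naming rule required, and all nitrogen libraries lay close together. Its log2 fold change was 0.83 (SE 0.16, edgeR adjusted p = 0.119), beside 0.33 (SE 0.16) at 5.6 M. Fresh oocytes held 212 ± 1.76 CPM (SD, n = 3), nearer to helium.

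By the rule for naming genes, 12 genes in each direction were taken, all without overlap between the groups and with a mean of at least 5 FPKM (counts scaled to gene length and library total) in the higher group. Log2 fold changes ran from 0.61 to 1.21 in the genes higher with helium and from -1.91 to -0.69 in the genes lower with helium, with adjusted p from 0.0930 to 0.586 by edgeR. The higher genes ranged in length from 672 to 2073 bases, with a median of 1172. The lower genes ranged from 198 to 4969 bases, with a median of 465, and 6 of the 12 were under 500 bases. Fresh oocytes, whose libraries were shallow like nitrogen libraries 1 and 2, held a mean CPM nearer to nitrogen in 11 of the 12 higher genes (all but PLAUR) and in 6 of the 12 lower genes.

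Genes of protein turnover stood among those higher with helium. PSMD13, a lid subunit of the 26S proteasome, had 5.00, 7.83 and 5.85 CPM in the helium libraries, against 4.07, 2.03 and 2.37 in the nitrogen libraries (log2 fold change 1.21, SE 0.37). MAEA, a subunit of the CTLH ubiquitin ligase, had 13.3, 10.3 and 10.1 CPM with helium, against 6.61, 4.47 and 4.32 with nitrogen (log2 fold change 1.18, SE 0.34). OTUB1, a deubiquitinating enzyme, had 26.3, 38.1 and 34.6 CPM with helium, against 21.3, 21.5 and 22.0 with nitrogen (log2 fold change 0.61, SE 0.21). The groups did not overlap in any of the 3, and for PSMD13 and OTUB1 the lowest helium library lay close to the highest nitrogen library.

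The other higher genes had varied roles. ZGLP1, a zinc finger transcription factor known from mouse for starting the oogenic programme, had 58.1, 56.2 and 44.6 CPM in the helium libraries, against 38.1, 24.8 and 22.5 in the nitrogen libraries (log2 fold change 0.92, SE 0.27). CD81, a tetraspanin of the egg membrane related to the sperm fusion factor CD9, had 16.6, 19.96 and 17.3 CPM with helium, against 12.2, 10.97 and 5.72 with nitrogen (log2 fold change 0.98, SE 0.33). WWOX, an oxidoreductase with WW domains studied as a tumour suppressor, had 16.7, 19.05 and 14.8 CPM with helium, against 8.13, 8.94 and 9.90 with nitrogen (log2 fold change 0.88, SE 0.24). Nitrogen library 3 was the lowest nitrogen library for ZGLP1 and CD81 and the highest for WWOX. PCID2, which takes part in mRNA export, and RPL13 of the large ribosomal subunit had log2 fold changes of 0.84 (SE 0.26) and 0.95 (SE 0.29). TFPT, a subunit of the INO80 chromatin remodeller, ZSWIM3 and C1orf50 had 0.93, 0.83 and 1.03.

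The genes lower with helium included short ones of the mitochondrion, the ribosome and the secretory pathway. SEC61G (chromosome 22, 1445067 to 1451951), the small subunit of the channel through which proteins enter the endoplasmic reticulum, had 232, 305 and 312 CPM in the helium libraries, against 432, 431 and 702 in the nitrogen libraries. The groups did not overlap, and nitrogen library 3 stood highest. Its log2 fold change was -0.89 (SE 0.23, edgeR adjusted p = 0.474), and fresh oocytes held 207 ± 46.2 CPM (SD, n = 3), below both coolants.

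LYRM7, an assembly factor of respiratory complex III, had 7.85, 10.4 and 11.04 CPM in the helium libraries, against 16.8, 21.1 and 26.8 in the nitrogen libraries (log2 fold change -1.16, SE 0.28). MRPL33, a mitochondrial ribosomal protein gene of 198 bases, had 17.3, 15.1 and 20.1 CPM with helium, against 26.9, 32.5 and 44.6 with nitrogen (log2 fold change -1.01, SE 0.26). RPL37 of the cytosolic ribosome had 9.14, 18.0 and 12.6 CPM with helium, against 29.5, 28.8 and 27.3 with nitrogen (log2 fold change -1.10, SE 0.25). Each of these showed the nitrogen libraries wholly above the helium ones, as the naming rule required. The table has 2 rows named MRPL33, and ribosomal protein genes have near-identical copies, so reads of RPL37, RPL13 and MRPL33 may be split and the values are uncertain.

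Kinase, phosphatase and chromatin genes were among the longer ones lower with helium. YES1, a SRC-family tyrosine kinase present in oocytes, had 96.4, 106 and 112 CPM in the helium libraries, against 161, 156 and 192 in the nitrogen libraries (log2 fold change -0.69, SE 0.17). PPP3CA, the catalytic subunit of the calcium-dependent phosphatase calcineurin, had 6.85, 7.05 and 7.71 CPM with helium, against 13.2, 10.6 and 20.6 with nitrogen (log2 fold change -1.09, SE 0.28). SAP30L, a subunit of the SIN3 histone deacetylase complex, had 13.6, 18.1 and 18.9 CPM with helium, against 36.6, 24.8 and 35.4 with nitrogen (log2 fold change -0.94, SE 0.24). The groups did not overlap in any of the 3, and nitrogen library 3 was the highest for YES1 and PPP3CA. C2orf76 and ACYP1, an acylphosphatase gene, had log2 fold changes of -0.9998 (SE 0.26) and -0.73 (SE 0.19).

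**Figure D2:**
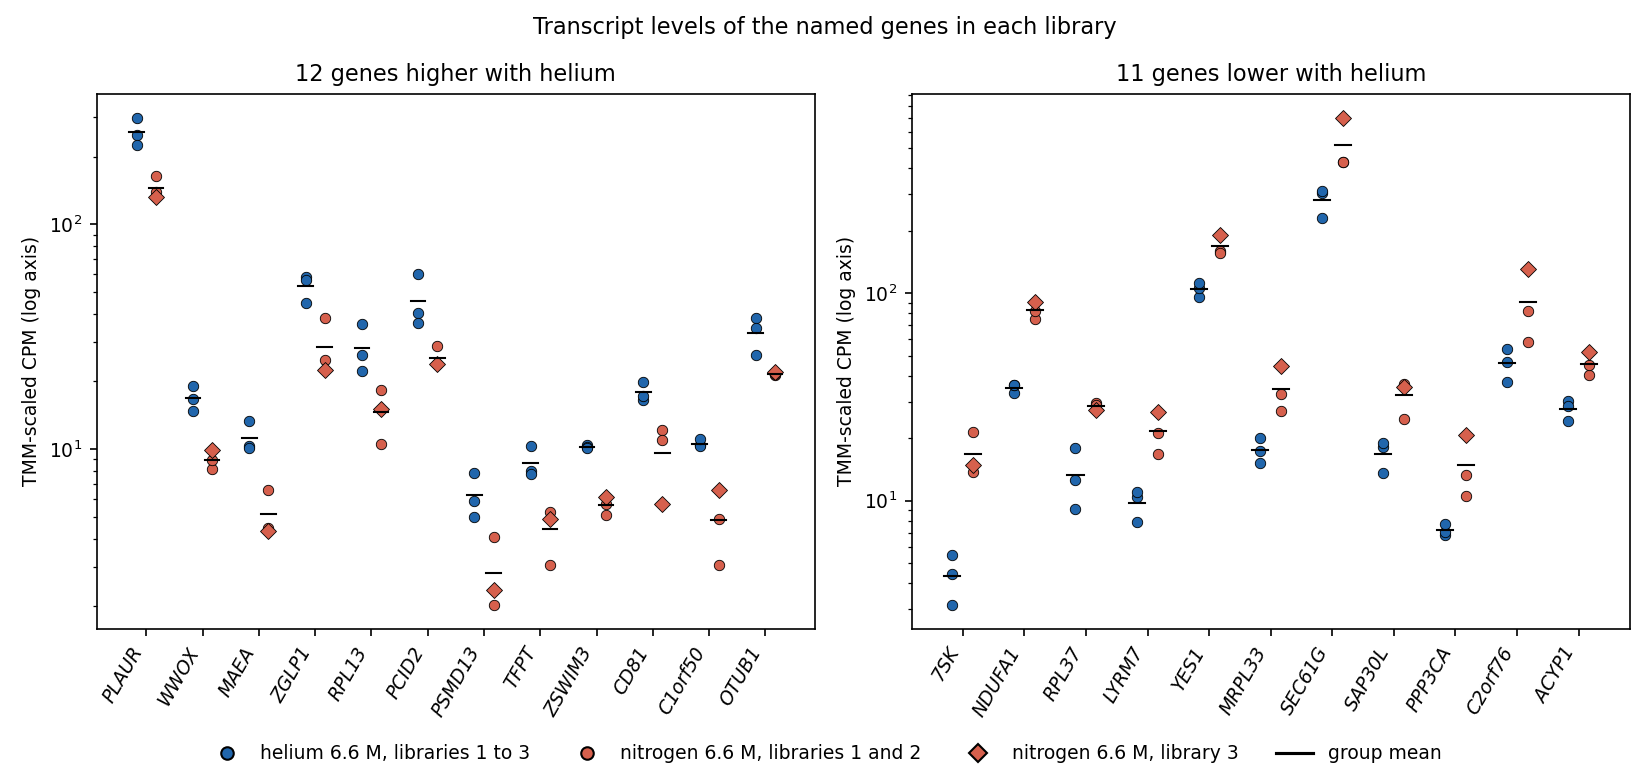
Level of 23 named genes in each library, in TMM-scaled CPM on a log axis, with the 12 genes higher with helium in the left panel and 11 lower with helium in the right panel. Blue points are helium 6.6 M libraries, red circles nitrogen 6.6 M libraries 1 and 2, red diamonds nitrogen library 3, and black bars group means. The groups do not overlap in any of these genes, which the naming rule required.

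The coolants were set against each other in the libraries at 5.6 M too, which share no library with those at 6.6 M. Depth moved with the coolant there too, with total counts of 6346848 to 8569618 with helium and 1790900.0 to 2333545 with nitrogen. At 5.6 M 0 of 8441 genes passed edgeR's test and 803 (9.51%) had an unadjusted p under 0.05, of which 379 (4.49%) were higher and 424 (5.02%) lower with helium, while DESeq2 called 49. Leaving out helium 5.6 M library 4 or 5 left 480 of 8620 and 525 of 8626 tested genes at an unadjusted p. Of the 678 genes at an unadjusted p at 6.6 M, 593 (87.5%) had the same sign at 5.6 M, against 66.7% of all tested genes. The genes at an unadjusted p and with the same sign at both concentrations numbered 209, which is 30.8% of those at 6.6 M and 26.03% of those at 5.6 M. Across the 8441 genes the log2 fold changes at the 2 concentrations correlated at r = 0.48 (rho = 0.45). The correlation was 0.45 (rho = 0.46) when helium 6.6 M was set against nitrogen library 3 alone. Against nitrogen libraries 1 and 2 it was 0.31 (rho = 0.27). Nitrogen 6.6 M libraries 1 and 2 over nitrogen library 3, which share their coolant, also correlated with the 5.6 M contrast, at 0.23 (rho = 0.29). Part of the correlation was thus present without a difference in coolant at 6.6 M. These describe genes within the same few libraries, and genes are not independent.

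All 12 genes that the rule took as lower with helium at 6.6 M were lower with helium at 5.6 M, 10 of them at an unadjusted p. Of the 12 higher genes, 9 were higher at 5.6 M, 3 of them at an unadjusted p, and PSMD13, C1orf50 and OTUB1 had the opposite sign (-0.25, -0.21 and -0.10). The difference between the log2 fold changes at 6.6 M and 5.6 M was tested directly as an interaction of coolant and concentration. By edgeR 0 of 8441 genes passed, 177 (2.10%) had an unadjusted p under 0.05, and DESeq2 also called 0. The count at an unadjusted p was 89 of 8535 tested genes without helium 6.6 M library 2 and 89 of 8626 without helium 5.6 M library 5. It was 307 of 9752 without nitrogen 6.6 M library 1 and 284 of 9773 without nitrogen 5.6 M library 1. The unadjusted interaction p was 0.00999 for PSMD13, 0.0215 for C1orf50, 0.0270 for OTUB1 and 0.0396 for PLAUR, none of which passed.

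**Figure D3:**
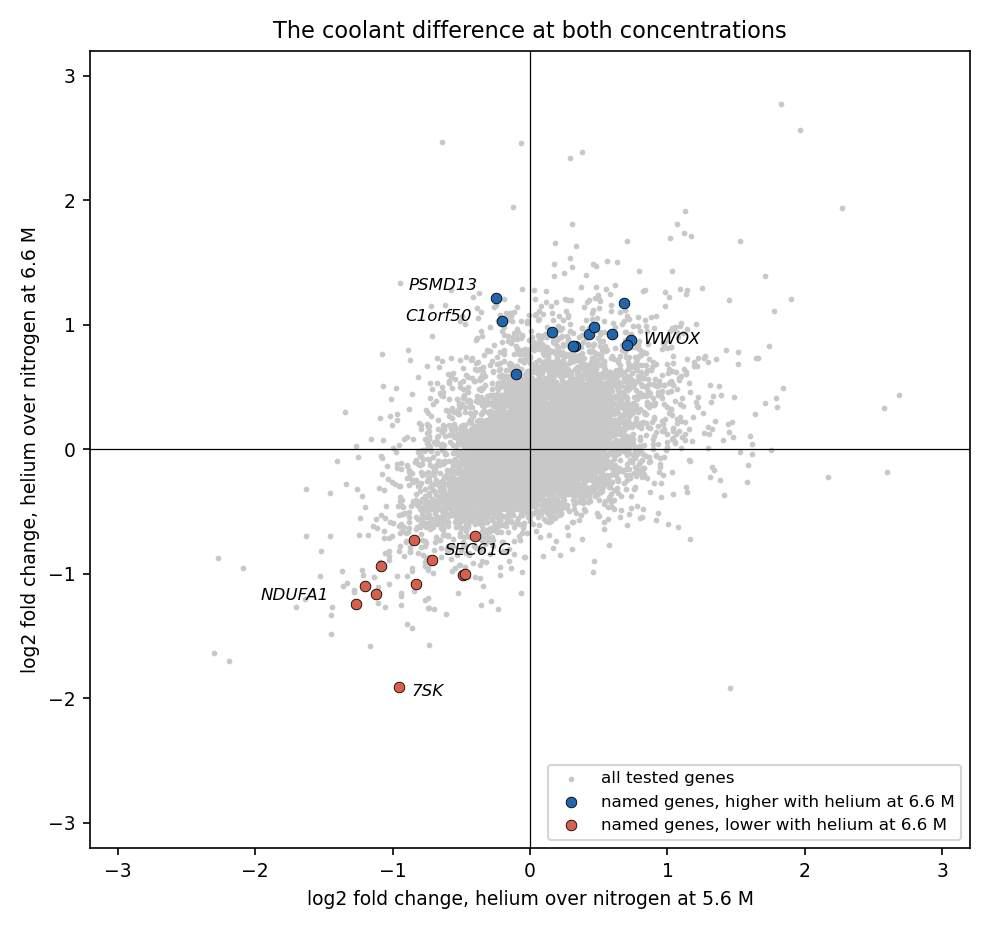
Log2 fold change of helium over nitrogen at 6.6 M (vertical axis) against that at 5.6 M (horizontal axis) for the tested genes, of which 8 lie outside the axes. Grey points are all genes, and blue and red points are the named genes higher and lower with helium at 6.6 M. All red points lie left of zero, while 3 of the 12 blue points do.

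Gene length went with the direction of the difference. The length classes were chosen after the values were seen, and lengths are those behind the deposited FPKM. Of the 264 tested genes under 500 bases, 65 (24.6%) were lower and 4 (1.52%) higher with helium at an unadjusted p, beside 4.28% and 3.76% of all tested genes. Their median log2 fold change was -0.28 (quartiles -0.62 and 0.06), against 0.01 over all tested genes. Among the 1362 genes from 1000 to under 1500 bases the balance was the other way, with 93 (6.83%) higher and 38 (2.79%) lower and a median of 0.09. Genes of 5000 bases or more numbered 610, with 9 higher and 19 lower and a median of -0.02.

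Within the 6 libraries the short genes stood apart in nitrogen library 3. Relative to the mean of the 6 libraries, the median log2 level of the genes under 500 bases was -0.22, -0.06 and -0.08 in the helium libraries, against 0.01, -0.01 and 0.40 in the nitrogen libraries. The median log2 fold change was -0.47 against nitrogen library 3 and -0.04 against libraries 1 and 2. Without nitrogen library 3, 39 short genes (14.3%) were lower and 11 (4.03%) higher at an unadjusted p (of 273 tested), with a median of -0.07. Of all 8628 genes tested in that fit, 222 were lower and 194 higher. At 5.6 M, where no nitrogen library was deep, the median of the short genes was -0.44, with 78 (29.5%) lower and 3 (1.14%) higher. Thinning all libraries to 1601519 counts left 41 (18.5%) lower and 4 (1.80%) higher of 222, beside 243 lower and 232 higher of all 7547 genes tested. Nitrogen library 3, with a depth like that of the helium libraries, thus held the highest level of short genes of the 6.

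Level went with direction as well. In the quintile of genes with the lowest mean CPM the median log2 fold change was 0.24, with 96 genes higher and 23 lower with helium at an unadjusted p. In the highest quintile it was -0.14, with 15 higher and 123 lower. The median was lower in each higher quintile, against nitrogen library 3 and against libraries 1 and 2 alike, and the highest quintile also had the lowest median at 5.6 M (-0.08).

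**Figure D4:**
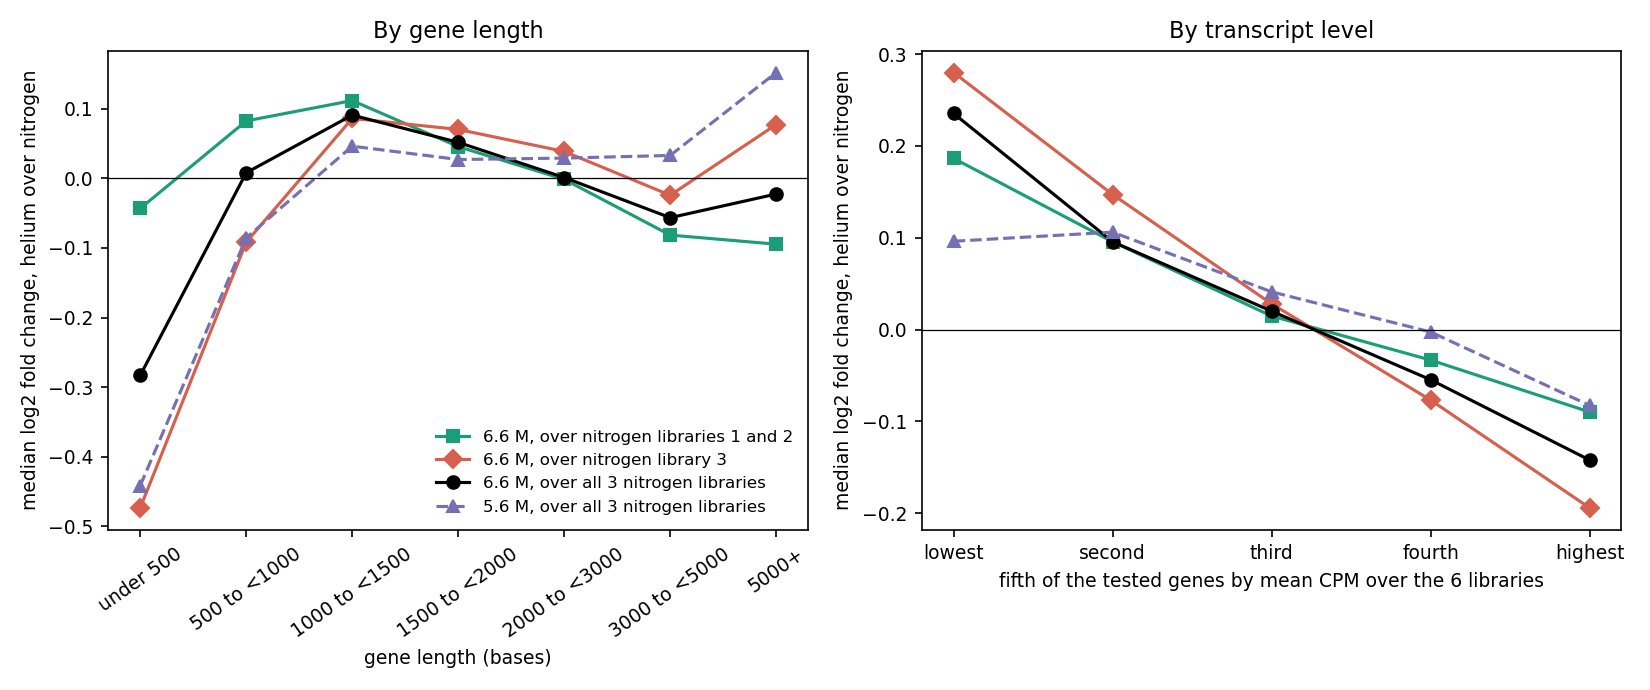
Median log2 fold change of helium over nitrogen by gene length class in bases (left) and by quintile of mean CPM (right). Black circles compare all 3 helium with all 3 nitrogen libraries at 6.6 M, green squares use nitrogen libraries 1 and 2, red diamonds nitrogen library 3, and purple triangles the libraries at 5.6 M. Genes under 500 bases sit at -0.28 for all libraries, at -0.47 against nitrogen library 3 and at -0.04 against libraries 1 and 2.

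More genes were detected with helium at a low threshold. At 1 FPKM or more, 9241, 9662 and 9141 genes were detected in the helium libraries, against 9019, 8677 and 8734 in the nitrogen libraries. The groups did not overlap. The means were 9348 ± 276 with helium and 8810 ± 183 with nitrogen (SD, n = 3 each), a difference of 538 genes. The exact permutation test, two-sided over 20 splits, gave p = 0.1, the smallest this design allows. After thinning to 1601519 counts, 8272, 8703 and 8213 genes had at least 5 counts with helium, against 8161, 7848 and 7810 with nitrogen, again without overlap (exact permutation p = 0.1). At 5 FPKM or more the groups overlapped, with 5856, 6146 and 5859 genes in the helium libraries, against 5902, 5647 and 5662 in the nitrogen libraries, a difference of 217 (exact permutation p = 0.3). At 0.1 FPKM or more the difference was 1331 (exact permutation p = 0.1).

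The respiratory chain is built from subunits encoded in the nucleus and in the mitochondrion, and the oocyte's mitochondria are inherited by the embryo. Among the 29 tested nuclear genes of complex I, 8 (27.6%) were lower and 0 higher with helium at an unadjusted p, while the median log2 fold change of the list was -0.02. Over all tested genes 4.28% were lower and 3.76% higher. By length, 24.6% of the genes under 500 bases and 5.94% of those from 500 to under 1000 bases were lower. The median length of this list was 687 bases. The 8 were the accessory subunit genes NDUFA1, NDUFC1, NDUFA6, NDUFA5, NDUFB3, NDUFA12, NDUFB6 and NDUFA4, the last of which is now often counted with complex IV. They measure 379 to 635 bases, and 15 tested members of the list are under 700 bases. NDUFC1 had 195, 173 and 263 CPM in the helium libraries, against 345, 354 and 518 in the nitrogen libraries (log2 fold change -0.95, SE 0.25, edgeR adjusted p = 0.474). NDUFA6 had 170.1, 193 and 210.0 CPM with helium, against 249, 282 and 449 with nitrogen (-0.78, SE 0.26). Both had no overlap between the coolants and their highest value in nitrogen library 3. All 8 had the same sign at 5.6 M. Without nitrogen library 3, 2 of 29 were lower at an unadjusted p, with a median of 0.13, beside 222 of all 8628 genes tested. Without helium library 1 or 3 the count was 4 and 5, beside 196 and 342 of all 8615 genes tested.

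Of the 26 tested nuclear genes of complexes II to V, 5 (19.2%) were lower and 1 (3.85%) higher at an unadjusted p. The shares over all tested genes were 4.28% and 3.76%. The list's median was 0.07, and it was -0.20 against nitrogen library 3 and 0.18 against libraries 1 and 2. The lower ones were UQCRB of complex III, COX7A2 and COX6C of complex IV, and ATP5J and ATP5J2 of the ATP synthase, all of 383 to 558 bases. ATP5J had 718, 682 and 781 CPM in the helium libraries, against 1008, 1284 and 1244 in the nitrogen libraries (log2 fold change -0.70, SE 0.24). The groups were well apart. UQCRC1, a core protein of complex III with 1569 bases, had 15.4, 17.2 and 10.2 CPM with helium, against 12.2, 6.91 and 5.72 with nitrogen (0.87, SE 0.35), and the groups overlapped.

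Mitochondrially encoded genes separated the nitrogen libraries from each other more than the coolants. The 13 protein genes of the mitochondrial genome summed to 33746, 21217 and 30161 CPM in the helium libraries, against 36557, 36843 and 18115 in the nitrogen libraries. Nitrogen library 3 was the lowest of all, below helium library 2. Of the 13, 12 had a log2 fold change below zero and the median was -0.26, but it was 0.45 against nitrogen library 3 and -0.59 against libraries 1 and 2. In all 13 genes nitrogen library 3 was the lowest nitrogen library, and in 11 it lay below the helium mean. COX1, the core of cytochrome oxidase, had 5127, 3148 and 5074 CPM with helium, against 5930.2, 6370.3 and 3264 with nitrogen (log2 fold change -0.22, SE 0.26). ND3, a core subunit of complex I, was the only one at an unadjusted p, with 88.0, 77.1 and 91.5 CPM with helium, against 224, 198 and 100.2 with nitrogen (-1.02, SE 0.33, edgeR adjusted p = 0.586).

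The share of all counts on the 37 mitochondrial genes was 4.21%, 2.79% and 3.76% in the helium libraries, against 4.92%, 4.57% and 2.41% in the nitrogen libraries. The helium range lay inside the nitrogen range. The difference of the means was -0.375 percentage points (3.59% ± 0.727 with helium and 3.96% ± 1.36 with nitrogen, SD, n = 3 each, exact permutation test, two-sided, p = 0.7). It was -1.15 without nitrogen library 3 and 0.1005 without nitrogen library 1, so its sign rested on single libraries.

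Oocyte-specific and maternal-effect genes encode the zona pellucida, egg-secreted growth factors and proteins that carry the first cleavages. Of 33 tested, 24 had higher and 9 lower values with helium, with a median log2 fold change of 0.32 (quartiles -0.00 and 0.53), against 0.01 over all genes. At an unadjusted p 4 (12.1%) were higher and 0 lower, beside 3.76% and 4.28% of all tested genes. The 4 were TCL1A, FIGLA, ASTL and TLE6. TCL1A, a maternal coactivator of AKT signalling, had 35.7, 62.1 and 30.1 CPM in the helium libraries, against 25.4, 20.7 and 19.8 in the nitrogen libraries (log2 fold change 0.97, SE 0.36). ASTL, the egg protease that cleaves the zona protein ZP2 after fertilization, had 22.3, 28.2 and 20.1 CPM with helium, against 15.8, 7.72 and 15.3 with nitrogen (0.84, SE 0.36). TLE6, a member of the subcortical maternal complex, had 41.8, 69.3 and 35.9 CPM with helium, against 32.5, 25.2 and 34.6 with nitrogen (0.66, SE 0.31). FIGLA, the transcription factor that turns on zona genes, overlapped between the coolants (0.79, SE 0.32) and had the opposite sign at 5.6 M (-0.89).

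Helium library 2 was the highest for TCL1A, ASTL and TLE6. In 5 of the 33 all helium libraries lay above all nitrogen libraries, and in 2 all lay below, beside 7.04% and 7.69% of all tested genes. The 5 were TCL1A, ASTL, TLE6, NLRP9 and KHDC3L. The last 2 of these were highest in helium libraries 1 and 3 and had an unadjusted p above 0.05. The median of the list was 0.54 against nitrogen library 3, 0.17 against libraries 1 and 2, and 0.23 without helium library 2. The count of 4 was 2 (of 33) without helium library 2 and 10 (of 35) without nitrogen library 1. Of all genes tested in those fits, 192 of 8535 and 687 of 9752 were higher. At 5.6 M the median was 0.25. BTG4, which couples maternal mRNA to deadenylation, had 23072, 14922 and 26097 CPM with helium, against 23048, 28783 and 24219 with nitrogen (log2 fold change -0.25, SE 0.32). Its groups overlapped, and helium library 2 was the lowest of all.

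Splicing genes had lower values with helium more often than not. Of 86 tested members of the spliceosome and its regulators, 55 had lower and 31 higher values, with a median log2 fold change of -0.14. At an unadjusted p 10 (11.6%) were lower and 2 higher, beside 4.28% and 3.76% of all tested genes. In 20 all helium libraries lay below all nitrogen libraries, and in 5 all lay above, beside 7.69% and 7.04% of all tested genes. SNRPG, a ring protein of the small nuclear ribonucleoproteins with 231 bases, had 237, 268 and 264 CPM in the helium libraries, against 415, 369 and 495 in the nitrogen libraries (log2 fold change -0.73, SE 0.22). Of the same ring, SNRPF had 1485, 1367 and 1675 CPM with helium, against 2469, 2247 and 2120.2 with nitrogen (-0.59, SE 0.25). SNRPE had -0.63 (SE 0.22). A second tested row named SNRPG had -0.47 (SE 0.28), so reads may be split between copies. The splicing regulator gene HNRNPL had 60.4, 71.8 and 57.1 CPM with helium, against 110.3, 83.7 and 97.5 with nitrogen (-0.62, SE 0.21).

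These splicing genes were not all short, with 231 to 2529 bases among the 10, of which 2 were under 700. SNRPB2 of the U2 particle, RBM8A of the exon junction complex, HNRNPD, PRPF38B, SNRNP27 and SRSF5 made up the 10, and all 10 had the same sign at 5.6 M. SNRPB and SNRNP25 were the 2 higher ones (0.63 and 0.50), and neither had the same sign at 5.6 M. Without nitrogen library 3, 12 of 86 were lower at an unadjusted p, with a median of -0.18, beside 222 of all 8628 genes tested. Without nitrogen library 1 the count was 7 of 87 and the median -0.01, beside 433 of all 9752 genes tested. Set against nitrogen library 3 alone the list's median was -0.03, and against libraries 1 and 2 it was -0.17.

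**Figure D5:**
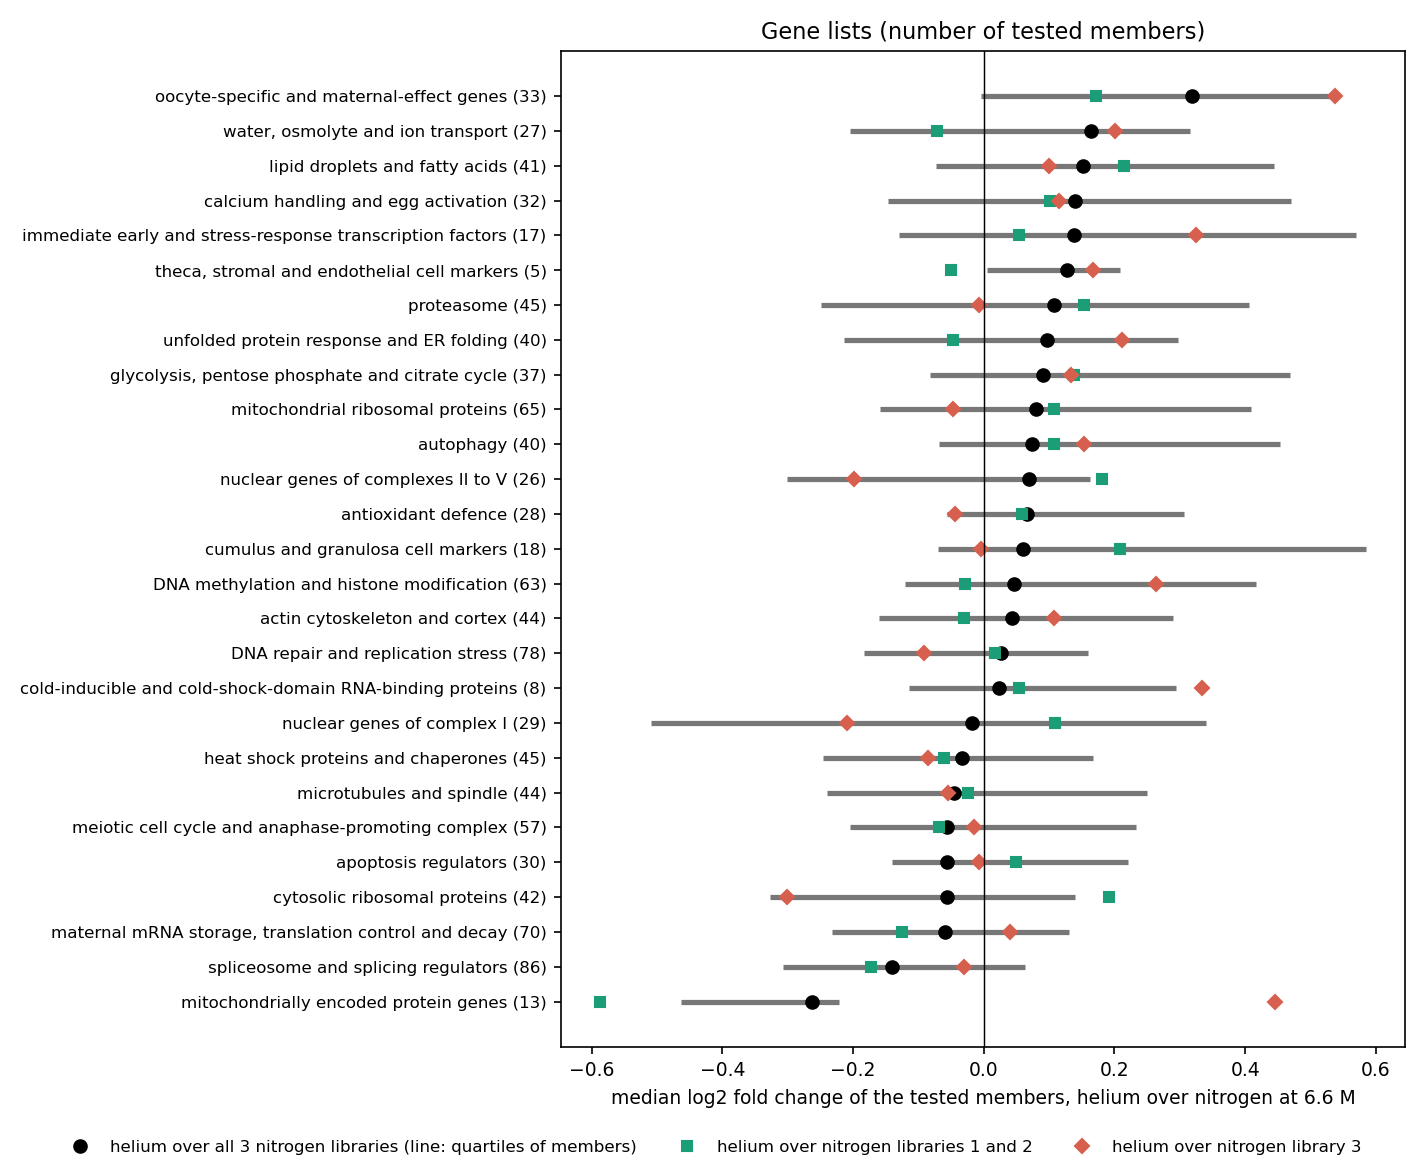
Median log2 fold change of helium over nitrogen at 6.6 M for the 27 gene lists with at least 5 tested members, whose number follows each name. Black circles use all 3 nitrogen libraries, with grey lines for the quartiles of the members, green squares nitrogen libraries 1 and 2, and red diamonds nitrogen library 3. The oocyte list is highest at 0.32 and the mitochondrially encoded genes lowest at -0.26, though at 0.45 against nitrogen library 3.

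The proteasome degrades ubiquitin-tagged proteins. Of its 45 tested genes, 5 (11.1%) were higher and 1 lower with helium at an unadjusted p, beside 3.76% and 4.28% of all tested genes, with a median log2 fold change of 0.11. The higher ones were PSMD13, PSMD4, PSMC4, PSMC1 and PSMD6 of the regulatory particle. PSMD4, a ubiquitin receptor, had 25.6, 35.1 and 19.8 CPM in the helium libraries, against 19.3, 17.9 and 12.6 in the nitrogen libraries (0.73, SE 0.30). UCHL5, a deubiquitinase bound to the same particle, was the lower one (-0.54, SE 0.21). PSMA5 of the core particle had overlapping groups (-0.24, SE 0.29). The proteasome median was -0.01 against nitrogen library 3 and 0.15 against libraries 1 and 2. At 5.6 M it was -0.02, with 0 genes higher and 2 lower at an unadjusted p.

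Cytosolic ribosomal protein genes had 4 (9.52%) lower and 1 (2.38%) higher of 42 at an unadjusted p and a median of -0.06. The shares over all tested genes were 4.28% and 3.76%. The lower ones, RPL37, RPS29, RPS28 and RPS13, measure 171 to 520 bases, and RPL13, with 930 bases, was the higher one. The list's median was -0.30 against nitrogen library 3 and 0.19 against libraries 1 and 2. Mitochondrial ribosomal protein genes had 4 (6.15%) higher and 4 (6.15%) lower of 65, with a median of 0.08. The higher ones, MRPL4, MRPS30, MRPS18B and MRPL14, measure 1069 to 1563 bases. The lower ones, both MRPL33 rows, MRPS18C and MRPL42, measure 198 to 767 bases.

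Among 45 tested heat shock and chaperone genes 0 were higher and 4 (8.89%) lower with helium at an unadjusted p. The list's median was -0.03, and the shares over all tested genes were 3.76% and 4.28%. DNAJC19, a co-chaperone of mitochondrial protein import, had 7.85, 11.9 and 10.5 CPM in the helium libraries, against 25.9, 26.4 and 19.9 in the nitrogen libraries (log2 fold change -1.24, SE 0.33, edgeR adjusted p = 0.474). The groups lay far apart, and at 5.6 M its log2 fold change was -1.10. HSPE1, the mitochondrial chaperonin cofactor, had 331, 400 and 376 CPM with helium, against 468, 576 and 567 with nitrogen (-0.54, SE 0.18). DNAJC2 and HSPB11 were the others, and 3 of the 4 measure under 700 bases. The abundant cytosolic chaperone gene HSP90AA1 overlapped between the coolants (-0.13, SE 0.28).

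Cold-inducible and cold-shock-domain genes were fixed as a list because the coolants differ in temperature. Of 8 tested, 1 (12.5%) was higher and 0 lower at an unadjusted p, beside 3.76% and 4.28% of all tested genes. The median was 0.02, and the higher one was the RNA-binding protein gene YBX3 (1.40, SE 0.46). It was low, with 3.43, 8.87 and 4.26 CPM in the helium libraries, against 3.05, 2.03 and 1.67 in the nitrogen libraries, and helium library 2 stood highest. CIRBP, whose product binds RNA in chilled cells, had 14.3, 24.4 and 13.4 CPM in the helium libraries, against 14.7, 10.6 and 10.5 in the nitrogen libraries (0.57, SE 0.31, edgeR adjusted p = 0.649). The groups overlapped, and helium library 2 was the highest.

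Of 40 tested genes of the unfolded protein response and endoplasmic reticulum folding, 1 (2.5%) was higher and 2 (5%) lower at an unadjusted p. The list's median was 0.10, and the shares over all tested genes were 3.76% and 4.28%. The lower ones were SEC61G and SEC62, which serve the same import channel. SEC62 had 332, 349 and 375 CPM in the helium libraries, against 586, 510 and 662 in the nitrogen libraries (-0.74, SE 0.22), with no overlap. DDIT3, the stress transcription factor CHOP, did not separate the coolants (-0.01, SE 0.19).

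Antioxidant genes had 2 (7.14%) higher and 0 lower of 28 (median 0.07), beside 3.76% and 4.28% of all tested genes. The 2 were the peroxiredoxin genes PRDX6 and PRDX5. PRDX6 had 94.1, 124 and 107 CPM in the helium libraries, against 63.0, 76.8 and 85.4 in the nitrogen libraries (0.52, SE 0.18). Apoptosis regulators had 2 (6.67%) higher and 1 (3.33%) lower of 30 (median -0.06). Among them were CASP9, the initiator caspase of the mitochondrial pathway, at 1.67 (SE 0.62) and PDCD5 at -0.59 (SE 0.23). CASP9 was low throughout, with 4.85, 3.78 and 2.53 CPM with helium, against 1.02, 1.62 and 0.977 with nitrogen, so its value rests on few counts. Calcium and egg activation genes had 4 (12.5%) higher and 1 (3.1%) lower of 32 (median 0.14). Calcineurin was split there, with the catalytic subunit gene PPP3CA lower and its relative PPP3CC (1.27) and the calcineurin inhibitor gene RCAN1 (1.71) higher, the last with 2.14, 14.6 and 3.59 CPM with helium, of which library 2 was high, against 4.07, 1.62 and 1.40 with nitrogen.

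Energy and lipid genes showed few counts, to be read beside 3.76% higher and 4.28% lower of all tested genes. Glycolysis, pentose phosphate and citrate cycle genes had 3 (8.11%) higher and 0 lower of 37 (median 0.09), which were PDK1, TPI1 and MDH2. Lipid droplet and fatty acid genes had 1 (2.44%) higher and 2 (4.88%) lower of 41 (median 0.15). The lower ones lengthen fatty acids: ELOVL4 had 294, 322 and 340.3 CPM in the helium libraries, against 399, 519.6 and 921 in the nitrogen libraries (-0.95, SE 0.27), and ELOVL5 had -0.68 (SE 0.22). Water, osmolyte and ion transport genes had 0 higher and 1 (3.70%) lower of 27 (median 0.16). The lower one, the aquaglyceroporin gene AQP3, lets glycerol and water pass. It had 1.29, 0.783 and 0.931 CPM with helium, against 5.08, 3.25 and 1.81 with nitrogen (-1.58, SE 0.70).

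Meiotic and cytoskeletal genes stood near the background, which was 3.76% higher and 4.28% lower. Meiotic cell cycle and anaphase-promoting complex genes had 2 (3.51%) higher and 3 (5.26%) lower of 57 (median -0.06). SMC1B, a meiotic cohesin subunit, had 587, 448 and 615 CPM in the helium libraries, against 687, 849 and 810.4 in the nitrogen libraries (-0.51, SE 0.20). The spindle kinase gene AURKA, at 5589, 3803 and 4228 CPM with helium, against 5465, 4869 and 3293 with nitrogen, had a log2 fold change of -0.00 (SE 0.23). Microtubule and spindle genes had 2 (4.55%) higher and 1 (2.27%) lower of 44 (median -0.05). Actin genes had 2 (4.55%) higher and 1 (2.27%) lower of 44 (median 0.04). CFL1, which severs actin filaments, had 219, 294 and 179 CPM with helium, against 148, 140.1 and 132 with nitrogen (0.72, SE 0.32).

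Genes of maternal mRNA storage, translation control and decay had 0 higher and 3 (4.29%) lower of 70 (median -0.06). Beside these counts stand 3.76% higher and 4.28% lower of all tested genes. EIF4E, the cap-binding translation factor, had 1183, 1178 and 1581 CPM in the helium libraries, against 955, 2214 and 3196 in the nitrogen libraries (-0.69, SE 0.41), a wide spread within nitrogen. DNA methylation and histone modification genes had 4 (6.35%) higher and 1 (1.59%) lower of 63 (median 0.05). The higher ones were HDAC9, EHMT1, KAT2A and SETDB1. DNA repair genes had 1 (1.28%) higher and 1 (1.28%) lower of 78 (median 0.03). They were OGG1, the glycosylase of oxidized guanine, at 0.91 (SE 0.37) and RPA3 at -0.68 (SE 0.24). Autophagy genes had 2 (5%) higher and 1 (2.5%) lower of 40 (median 0.07).

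Immediate early and stress transcription factor genes had 1 (5.88%) higher and 1 (5.88%) lower of 17 (median 0.14), beside 3.76% and 4.28% of all tested genes. EGR1, the higher one, had 1.71, 28.2 and 3.19 CPM in the helium libraries, against 3.56, 2.44 and 1.26 in the nitrogen libraries, so its value came from helium library 2 alone. HES1, a target of Notch signalling, had 77.4, 98.6 and 94.8 CPM with helium, against 189, 108 and 102 with nitrogen (-0.55, SE 0.25).

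Some markers of other ovarian cells, but not all, stood apart in helium library 2. Of 18 tested cumulus and granulosa genes, 5 (27.8%) were higher and 0 lower with helium at an unadjusted p, beside 3.76% and 4.28% of all tested genes, namely PTX3, TNFAIP6, TIMP1, COL4A1 and SERPINE2. TIMP1, a metalloproteinase inhibitor gene, had 0, 130 and 6.68 plain CPM in the helium libraries, against 2.52, 0 and 0.541 in the nitrogen libraries. TNFAIP6, a cumulus matrix gene, had 0, 30.8 and 9.28 plain CPM with helium, against 0, 0 and 0.541 with nitrogen. Helium library 2 was the highest by far, and helium library 1 had no count of either gene. The cumulus gene HAS2 went the other way, with 92.5, 83.5 and 113 plain CPM with helium, against 106, 117 and 99.0 with nitrogen. PTGS2 had 47.5, 79.9 and 60.4 plain CPM with helium, against 86.0, 64.3 and 66.1 with nitrogen. CYP19A1 had a mean of 0.807 plain CPM with helium and 1.25 with nitrogen. The 18 matched cumulus and granulosa markers summed to 353, 645 and 407 plain CPM with helium, against 417, 376 and 390.0 with nitrogen.

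The steroidogenic gene CYP11A1 had 0.143, 6.37 and 0.409 plain CPM in the helium libraries, against 0 in all 3 nitrogen libraries. VIM, a mesenchymal filament gene, had 0.429, 16.8 and 2.05 plain CPM with helium, against 1.01, 1.15 and 2.71 with nitrogen. AMH and AREG had counts in helium libraries 2 and 3 and in no other of the 6 libraries, all under 1 plain CPM. FSHR, EREG and FOXL2 were at 0 in all 6 libraries. The part of these cells in the other results was not tested. On the same list STAR had a log2 fold change of -0.05 (SE 0.17) and HAS2 of -0.26 (SE 0.20). Theca, stromal and endothelial genes had 0 of 5 in either direction (median 0.13) and summed markers of 11.3 to 21.9 plain CPM with helium, against 11.6 to 11.9 with nitrogen, with CDH5, COL3A1, PECAM1 and CYP17A1 at 0 throughout. Blood and immune genes had 0 of 3 in either direction (median 0.69) and summed to 4.87 to 7.96 plain CPM with helium, against 3.11 to 5.53 with nitrogen, with TYROBP, CD74, ALAS2 and HBB at 0 throughout.

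Among the genes of smallest p that carry no symbol, ENSBTAG00000015156 (277 bases, chromosome 21, 57388583 to 57395511) came second after 7SK. It had 165, 184 and 194 CPM in the helium libraries, against 368, 377 and 445 in the nitrogen libraries (log2 fold change -1.13, SE 0.21, edgeR adjusted p = 0.119). Its fresh level was 355 ± 116 CPM (SD, n = 3), just below the nitrogen libraries, and at 5.6 M the log2 fold change was -1.28 (SE 0.21).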

How the data were processed

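RNA sequencing counts of 24616 genes in 15 libraries were used, 3 in each of 5 groups, of which the helium 6.6 M and nitrogen 6.6 M libraries are compared. Per the file headers, the authors deposited raw counts and FPKM values for each gene and library, with gene coordinates. HISAT2 2.0.4, StringTie 1.3.0 and the UMD3.1 build are named, per the submitters' processing notes, without their roles. Of read filters, strand use and reads with several matches nothing is given in the sources used here, so overlapping and antisense genes cannot be told apart. Deposited FPKM values equalled counts over length and library total within 0.1% for all 180473 values above 0, which gave the gene lengths. 6062 genes have no symbol.

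From the counts, edgeR 4.0.16 in R 4.3.3 (limma 3.58.1) fitted all 5 groups together by robust quasi-likelihood, with TMM scaling, filterByExpr (8441 genes) and no replicate block. Contrasts were helium minus nitrogen at 6.6 M, at 5.6 M, and their difference, with p-values adjusted after Benjamini-Hochberg across all 8441 genes (threshold 0.05). The same steps were tested on simulated data. CPM per gene are TMM-scaled, and markers of other cells are plain CPM. Genes were named if they had a symbol, no overlap between groups and a mean of 5 FPKM or more in one of them. As fewer than 12 passed in each direction, the 12 of smallest p were taken, and the values of 1 of them are not reported here. In each of 28 lists the rule also took the 2 genes of highest mean CPM and the 2 of smallest p. Other list members, counted at an unadjusted p, were named after their values were seen, and the length classes were chosen after the data were seen. Of 1605 list symbols 1374 were matched. The members and lists were chosen with earlier results of these data known. The spread within groups showed no duplicate libraries. Same-numbered libraries did not deviate together, so the samples were not treated as pairs. Alternatives were DESeq2 1.42.0, other scaling and filters, thinning to equal totals, fewer libraries, a depth term and leaving out each library. Standard errors come from the fit. Whether molecular identifiers were counted is not given in the sources used here. Depth limits the precision of low genes most in nitrogen libraries 1 and 2.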

Additional observations from a re-analysis of the deposited data

How the results depend on the processing

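No gene passed between helium and nitrogen at 6.6 M by edgeR with DESeq2's size factors, with at least 10 counts in each of the 6 libraries, with only the 6 libraries, after thinning or without mitochondrial genes. Other settings called some: 67 without a filter on low counts (38 higher and 29 lower with helium; 16294 genes tested; TIMP1, RARRES2, POSTN and TNFAIP6 had the smallest p), 8 by DESeq2's Wald test, and 3 with depth class as a term (KMT5A, SP2 and TSC22D2), a fit in which nitrogen library 3 is the only deep nitrogen library. Leaving out 1 library at a time gave 0 to 1 genes, with 1 only without nitrogen library 3. In those fits the count at an unadjusted p, 678 of 8441 in the main fit, ran from 416 of 8628 to 1120 of 9752. The lowest was without nitrogen library 3 and the highest without nitrogen library 1. At 5.6 M the counts were 61 without a filter and 49 by DESeq2, and for the interaction 2 without a filter. Same-numbered libraries correlated in their deviations at 0.0845, -0.269 and 0.247, so the numbers did not pair them. With the number as a replicate block, 0 genes passed over all 15 libraries (475 at an unadjusted p) and 4 over the 6 at 6.6 M, namely NDUFA1, 7SK, NDUFC1 and ENSBTAG00000015156.

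Of the 28 lists, 10 had a median of at least 0.1 in size. The number was 18 without a filter, where the cumulus and granulosa median was 0.82 (0.06 with it), 17 with depth class as a term, and 10 to 17 without single libraries, with 17 without nitrogen library 1. Without single libraries the difference in mitochondrial share ran from -1.15 to 0.1005 percentage points (0.0243 without helium library 2), and that in genes detected at 1 FPKM from 381 to 642.5. ND6 reversed, to 0.56, with depth class as a term. The causes were not tested. Single genes were followed through these settings if the rule took them, but not if it took them for high CPM alone. List members named after their values were seen were not followed. In the genes followed, 1078 values kept their side of the threshold, 27 passed under another setting, and 1 reversed. Counts at an unadjusted p in short genes, complex I, splicing and oocyte genes were added after the data were seen, and 67 of them stayed within 1.5 times while 13 did not. Of the list medians, 375 stayed within and 72 moved beyond the spread between libraries. Outside nitrogen library 3, depth and coolant cannot be told apart, and low genes rest on few counts in the shallow libraries.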
